A study of Pteromalus puparum with 9 samples.

Results

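Pteromalus puparum is a parasitoid wasp whose young develop inside butterfly pupae. In the duct of its salivary gland, 251 of 21808 ID stems had their highest level, by a margin set by the rule below. An ID stem is the name of a transcript model in the deposited tables without its isoform number, and it stands in for a gene. Levels are CPM, the count of a stem scaled to a common library total after TMM scaling, which corrects for differences in RNA composition. The stems were chosen by their levels: a stem was taken as duct-peaking when its duct mean was at least 20 CPM, at least 4 times the reservoir mean and at least 4 times the carcass mean, and when all 3 duct libraries lay above all 6 others. The same values fix the excess of the duct, so the excess of the duct over the other tissues is given as a description, with no test.

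The study compared salivary gland duct, salivary gland reservoir and carcass, a word the labels leave undefined, in wild-type wasps by bulk strand-specific RNA sequencing. Each tissue had 3 libraries, labelled as biological replicates and as 1 batch. The labels used here give no stage, sex or age of the wasps and do not say how many glands made up a library, so a p-value covers only the spread among these libraries, which may be technical. The 9 libraries held 18690598 to 22640711 estimated counts, and replicates of a tissue differed by more than sampling noise (chi-square per degree of freedom of 36.5 to 240 over stems). The files pair no ID with a gene name, so the labelled tissues were not checked against marker genes and the roles of the stems are not given.

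In insects, salivary secretion is made in gland cells, may be held in a reservoir, and leaves through a duct. The duct is an epithelial tube with a cuticle lining on its inner side, and in several insects its cells also change the ions and water of the saliva that passes through. In bulk tissue, fewer cells of a type and less RNA per cell cannot be told apart.

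The duct-peaking stems took 10.2%, 12% and 10.6% of the counts in duct libraries 1 to 3, against 0.441%, 0.384% and 0.96% in reservoir libraries 1 to 3 and 3%, 0.974% and 0.657% in carcass libraries 1 to 3. The mean share was 10.9% ± 0.952 in duct libraries, 0.595% ± 0.317 in reservoir libraries and 1.54% ± 1.27 in carcass libraries (SD, n = 3 each), and the carcass mean was 0.815% without library 1. Carcass library 1 stood above the other 2 carcass libraries, and reservoir library 3 above the other 2 reservoir libraries. Per length, in the authors' TPM (transcript abundance corrected for transcript length and scaled to a fixed library total), the stems ranged from 3.25 to 20380 TPM in the duct with a median of 56.2 TPM. The other 3011 stems with a duct mean of at least 20 CPM had a median of 21.8 TPM. Of the 251 stems, 108 reached 100 TPM and 30 reached 1000 TPM in the duct. The 4 leading stems made up 39.8% of the summed duct TPM of the 251, and the leading 20 made up 69.5%.

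These 4 stems were Ppup085830, PB.5197x, PB.6164x and Ppup153310. Ppup085830, at 20376.5 ± 4519.1 TPM in the duct (SD, n = 3), had 3363, 5937 and 6083 CPM in duct libraries 1 to 3, against 662, 422 and 2285 CPM in the reservoir and 90.4, 89.5 and 129 CPM in the carcass. PB.5197x, at 19568.4 ± 871.5 TPM in the duct, had 11054.5, 12344.5 and 11718.6 CPM in the duct, against 880, 1686 and 5254 CPM in the reservoir and 9.88, 4.12 and 4.10 CPM in the carcass. Both were lowest in the carcass. Their duct and reservoir libraries did not overlap, which the rule required of every stem of the set. Duct and reservoir came closest in reservoir library 3, which held 44.9% of the mean duct level of PB.5197x and 44.6% of that of Ppup085830. PB.6164x, at 13610.3 ± 1291.6 TPM in the duct, had 8422, 10321 and 8779 CPM in the duct, against 182, 42.5 and 11.5 CPM in the reservoir and 2889, 526 and 478 CPM in the carcass. It differed from the first pair in its order, with the reservoir lowest and carcass library 1 nearest to the duct. Ppup153310, at 6821.8 ± 1414.6 TPM in the duct, had 1374, 1787 and 2391 CPM in the duct, against 147, 238 and 866 CPM in the reservoir and 36.8, 33.0 and 24.1 CPM in the carcass. Its order was that of the first pair. The duct mean was 4.57, 4.49 and 4.44 times the reservoir mean for Ppup085830, PB.5197x and Ppup153310, close to the minimum of 4. Their place in the set can thus turn on 1 reservoir library. For PB.6164x the smaller fold was 7.07, over the carcass.

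**Figure D1:**
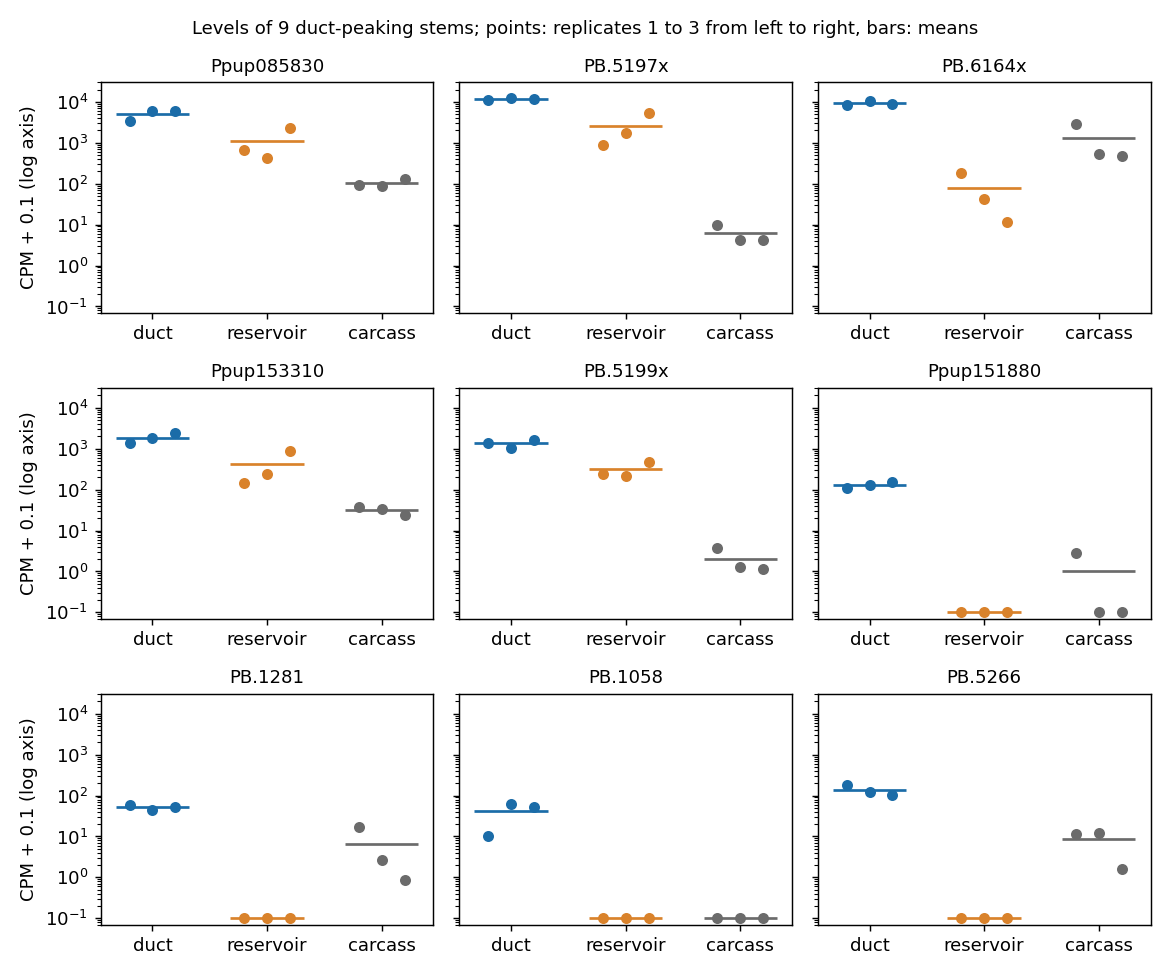
Levels of 9 duct-peaking stems in the duct, reservoir and carcass, as CPM + 0.1 on a log axis. Points are replicates 1 to 3 from left to right and bars are means (n = 3 per tissue). Ppup085830, PB.5197x, Ppup153310 and PB.5199x are lowest in the carcass, PB.6164x, PB.5266 and PB.1281 are lowest in the reservoir, and PB.1058 has no count outside the duct.

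By the smaller of their 2 gaps, Ppup151880 and PB.1058 stood farthest above the rest, with a duct mean 91.3 and 83.8 times that of the next tissue once 0.5 CPM was added to each mean. Their order depends on the 0.5 CPM and on single libraries. Without carcass library 2 or 3 the ratio was 69 for Ppup151880, under the 83.8 of PB.1058. Without duct library 1 it was 98.7 for Ppup151880 and 115 for PB.1058. Leaving out carcass library 1 kept the order, with a ratio of 258 for Ppup151880. Ppup151880 had 108, 128 and 150 CPM in the duct, no count in the reservoir, and 2.75, 0 and 0 CPM in the carcass. PB.1058 had 10.2, 62.7 and 51.2 CPM in duct libraries and lacked any count in the other 6 libraries. With 3 counts over a tissue's libraries as the floor, its duct level was at least 656-fold higher than the reservoir level and at least 1170-fold higher than the carcass level. These bounds depend on the depth summed over libraries and were 400 without reservoir library 3 and 716 without carcass library 2. PB.7262 and Ppup112190, named because only 3 stems of the set lacked any count outside the duct, were the others. PB.7262 had 22.1, 16.6 and 25.6 CPM in the duct, and Ppup112190 had 3.41, 55.0 and 25.7 CPM. A count of 0 in 1 library allows up to 0.0909 to 0.21 CPM, for counting error only. A further 7 stems had carcass counts but none in the reservoir.

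Most members were nearer to their thresholds than these. The smaller of the 2 folds of the duct mean over another tissue had a median of 7.24 and quartiles of 5.57 and 10.6. The 3 stems just inside the fold minimum had folds of 4.004, 4.021 and 4.046, and the 3 just outside had 3.962, 3.949 and 3.93. At the level minimum, the 3 stems just inside had duct means of 20.12, 20.57 and 21.25 CPM and the 3 just outside 19.75, 19.45 and 19.31 CPM. Another 2 stems met the level and both folds but had overlapping libraries. The carcass mean exceeded the reservoir mean in 203 of the 251 stems, the reservoir mean exceeded the carcass mean in 45, and both were 0 in 3.

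All 251 stems passed edgeR's filter on low counts. In edgeR's quasi-likelihood test over 12143 stems (Benjamini-Hochberg adjusted p under 0.05 and at least a 2-fold difference), 240 of them were called higher in the duct than in the reservoir, where 10.9% of all tested stems were called higher. Against the carcass, 210 were called higher, where 16.3% of all tested stems were. The rule used both contrasts, so nothing is read from these counts. The median log2 fold change of the 251 stems was 6.31 for duct over reservoir and 3.02 for duct over carcass, beside 0.03 and -0.05 over all tested stems.

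The rule did not compare reservoir with carcass, but it held both below the duct. It thus left out stems about as high in the reservoir or the carcass as in the duct, and partly sets the shares below. Between reservoir and carcass, 166 of the 251 stems were called, in both directions. A group of 149 stems, 59.4% of the 251, was lower in the reservoir than in the carcass, beside 27.5% of all tested stems. A group of 17 stems, 6.77%, was higher in the reservoir, beside 15% of all tested stems. The other 85 were not called, and 3 of them had no count in either tissue and nothing to test. Of the 251 stems, 13 passed the filter on low counts only through the duct libraries. Among the 238 that pass it without the duct, 146 were lower and 16 higher in the reservoir in the same fit, beside 27.9% and 15.1% of all such stems, and a fit of these 6 libraries alone called 115 lower and 15 higher, beside 25.8% and 16.9%. The median log2 fold change of reservoir over carcass was -3.29 over the 251 stems and -0.23 over all tested stems. Among the other 3011 stems with at least 20 CPM in the duct, 11.6% were lower and 29.3% higher in the reservoir. Stems high in both duct and reservoir stay among these by the rule, so their gap to the 251 is partly set by it. The reservoir mean was under 1 CPM for 97 of the 251 stems and the carcass mean for 14. The calls rested in part on single libraries: 115 stems were lower and 35 higher without carcass library 1, beside 25.3% and 15.2% of all tested stems. Without reservoir library 2, 89 were lower and 16 higher, beside 23.7% and 16%.

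**Figure D2:**
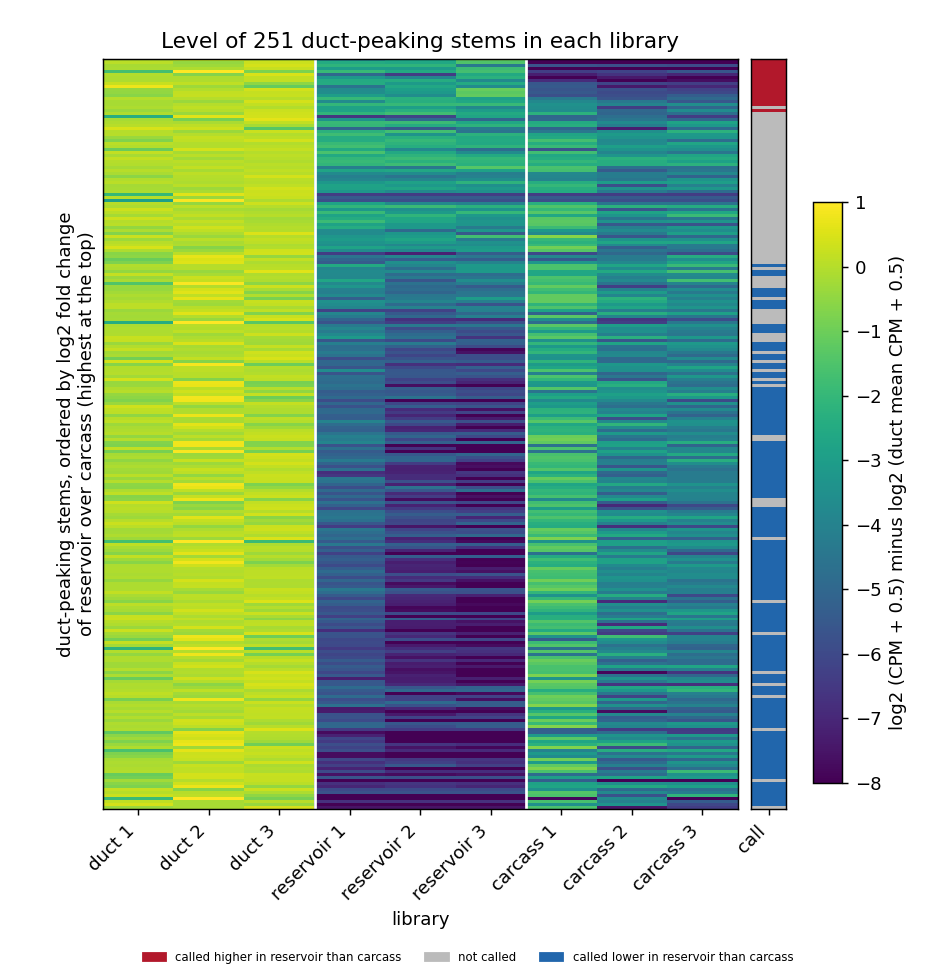
Levels of the 251 duct-peaking stems in each library, as log2 (CPM + 0.5) minus log2 of the duct mean + 0.5, with duct libraries on the left and stems ordered by the log2 fold change of reservoir over carcass. The strip at the right marks the 17 stems called higher in reservoir than carcass libraries, the 149 called lower and the 85 not called. Carcass library 1 is the highest carcass library for 122 of the 149 stems.

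The 17 stems higher in the reservoir made up 35.5% of the summed duct TPM of the 251 stems, beside 41.7% for the 149 stems lower in the reservoir and 22.8% for the 85 not called. Within the 17, Ppup085830, PB.5197x and Ppup153310 held 86.9% of the duct TPM, and the other 14 made up 4.67% of that of the 251. The median duct level of the 17 was 352 TPM, with 8 of them under 100 TPM, against 70.4 TPM in the group of 149 and 40 TPM in the 85. Of the 4 leading stems, Ppup085830, PB.5197x and Ppup153310 belonged to the 17 and PB.6164x to the 149. For Ppup085830 the log2 fold change of reservoir over carcass was 3.46 ± 0.65 (SE; edgeR adjusted p = 0.00202), and for Ppup153310 it was 3.75 ± 0.66 (edgeR adjusted p = 0.00152). For PB.6164x it was -4.04 ± 1.12 (edgeR adjusted p = 0.0141), and this call was lost without reservoir library 2 (-3.59, edgeR adjusted p = 0.0584). Without reservoir library 3 the log2 fold change was 2.54 for Ppup085830 and 2.77 for Ppup153310, and without carcass library 1 it was -2.62 for PB.6164x, and all 3 kept their calls. Without reservoir library 1 it was -5.45 for PB.6164x.

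The largest rises in the reservoir over the carcass among the 17 were those of PB.5197x and PB.5199x. PB.5197x had a log2 fold change of 8.76 ± 0.89 (edgeR adjusted p = 7.11e-05), and of 7.87 without reservoir library 3. PB.5199x had 239, 216 and 485 CPM in the reservoir, against 3.64, 1.15 and 1.05 CPM in the carcass, and 1404, 1018 and 1636 CPM in the duct. Its log2 fold change was 7.34 ± 0.68 (edgeR adjusted p = 4.32e-05). No reservoir library overlapped a carcass library in either stem, which the choice of named stems required, and the same held for all 17. Without carcass library 1 the log2 fold change was 8.20 for PB.5199x and 9.36 for PB.5197x. By fitted log2 fold change, the largest falls among called stems whose libraries did not overlap were those of PB.5266 and PB.1281, which had no count in the reservoir. PB.5266 had 11.6, 12.3 and 1.51 CPM in the carcass and 183, 120 and 103 CPM in the duct. It was at least 134-fold lower in the reservoir than in the carcass (edgeR adjusted p = 0.00245). PB.1281 had 16.6, 2.51 and 0.754 CPM in the carcass and 57.6, 45.4 and 52.6 CPM in the duct, and it was at least 105-fold lower in the reservoir (edgeR adjusted p = 0.0125). Without carcass library 1 the bound for PB.1281 was 25.9, and without reservoir library 3, whose depth enters the floor, it was 64.2, and that for PB.5266 was 81.9.

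Single libraries carried much of the level outside the duct. The summed level of the 251 stems was 23330 CPM in carcass library 1, against 5964 and 6066 CPM in carcass libraries 2 and 3. Carcass library 1 was the highest carcass library for 201 of the 251 stems, 80.1%, and for 36.7% of the other stems with at least 20 CPM in the duct. The excess was uneven across stems. In the group of 149, the median stem stood at 23.4% of its duct mean in carcass library 1 and at 6.87% and 6% in carcass libraries 2 and 3. In the group of 17 these medians were 1.19%, 0.507% and 0.437%, and PB.5197x, the stem with the highest duct mean in CPM, reached 0.0844% of its duct mean in carcass library 1.

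Reservoir libraries differed as well. In the group of 149 the median stem stood at 1.67%, 0.499% and 0.234% of its duct mean in reservoir libraries 1 to 3, and reservoir library 1 was the highest reservoir library for 125 of these stems. In the group of 17 the medians were 12.9%, 16% and 20.7%, and reservoir library 3 was the highest for 10 stems. The summed level of the 17 was 2697, 3309 and 10290 CPM in reservoir libraries 1 to 3, against 199, 162 and 201 CPM in carcass libraries 1 to 3. The labels do not say how the carcass was prepared, and whether duct tissue was part of carcass library 1 was not tested. The carcass levels and the 149 calls are to be read with that limit. Carcass library 1 held 31.5% of the mean duct level of PB.6164x and 0.0844% of that of PB.5197x.

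**Figure D3:**
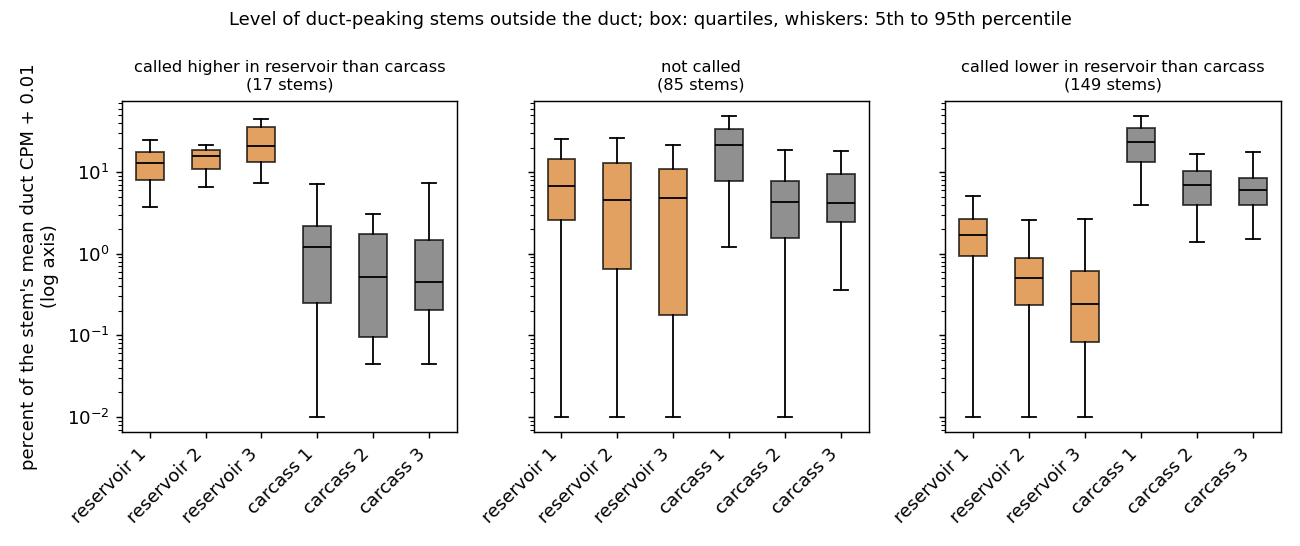
Level of the duct-peaking stems in reservoir and carcass libraries, as percent of each stem's duct mean + 0.01 on a log axis, for the 17 stems called higher in reservoir than carcass libraries, the 85 not called and the 149 called lower. Boxes are quartiles over stems and whiskers the 5th to 95th percentile. In the group of 149, carcass library 1 has a median of 23.4%, above 6.87% and 6% in the other 2 carcass libraries.

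The duct libraries themselves differed more over the duct-peaking stems than over other stems. The SD of log2 (CPM + 0.5) over the 3 duct libraries had a median of 0.305 over the 251 stems and of 0.157 over the other 3011 stems with at least 20 CPM in the duct. The smallest spreads were those of PB.5730, with 115, 115 and 118 CPM in the duct, and PB.3348x, with 25.8, 26.8 and 26.2 CPM. The largest were those of Ppup112190, given above, and PB.1707x, which had 12.1, 141 and 16.8 CPM in the duct, against 0.14, 0 and 0.108 CPM in the reservoir and 1.71, 2.79 and 1.09 CPM in the carcass. Duct library 1 was the highest duct library for 41 of the 251 stems (16.3%), duct library 2 for 103 and duct library 3 for 107. Among the other stems duct library 1 was the highest for 35%.

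Duct library 2 stood apart for part of the set. In 38 of the 251 stems, 15.1%, it was at least 2 times the mean of duct libraries 1 and 3, as in 14 of the other 3011 stems (0.465%). These 38 stems were picked after their values were seen and are described only. PB.7574x, the one with the highest duct mean in CPM, had 1845, 4664 and 1560 CPM in the duct, against 78.7, 18.1 and 5.55 CPM in the reservoir and 410, 456 and 262 CPM in the carcass. Carcass library 2 exceeded carcass library 1 in 22 of the 38, where it did so in 17 of the other 213 duct-peaking stems. The summed level of the 38 was 7796, 21560 and 7836 CPM in duct libraries 1 to 3, against 1273, 1714 and 736 CPM in carcass libraries 1 to 3. Across the 251 stems, which are not independent replicates and share their libraries and scaling, the log2 deviation of duct library 2 from the mean of the other 2 duct libraries correlated with that of carcass library 2 at Pearson r = 0.488 and Spearman rho = 0.436. Across the other 3011 stems the values were -0.382 and -0.408.

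**Figure D4:**
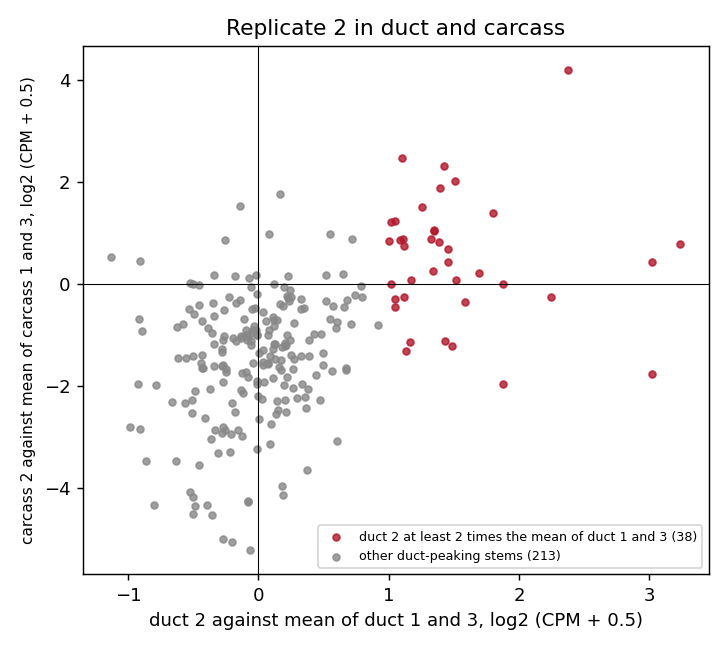
Deviation of duct library 2 from the mean of duct libraries 1 and 3 (horizontal axis) and of carcass library 2 from the mean of carcass libraries 1 and 3 (vertical axis), both on the log2 (CPM + 0.5) scale, for the 251 duct-peaking stems. Carcass library 2 exceeds carcass library 1 in 22 of the 38 stems at least 2 times higher in duct library 2 and in 17 of the other 213.

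The IDs carry 4 kinds of name among the duct-peaking stems: 96 begin with PB and end in x, 77 begin with PB without an x, 40 begin with Ppup and 38 with MSTRG. What these names stand for is not stated in the labels or the files. PB names without an x made up 30.7% of the set and 71.6% of the other stems with at least 20 CPM in the duct. PB names with an x made up 38.2% and 21.9%, Ppup names 15.9% and 1.93%, and MSTRG names 15.1% and 3.82%. Of the 98 Ppup stems that reached 20 CPM in the duct, 40 were duct-peaking, and 9 of the 20 leading stems by duct TPM were Ppup stems. The median duct level of the Ppup members was 514 TPM, against 44 to 51.5 TPM in the other 3 kinds. TPM divides by length, and the Ppup members had the lowest median relative length (explained below), 0.39 against 0.575 to 0.948.

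Pooled over the kinds of name, whose mix differs between the groups, the duct-peaking stems had fewer models and lower relative lengths than the others. Of the 251, 164 (65.3%) consisted of 1 transcript model, beside 37.8% of the other stems with at least 20 CPM in the duct. The ratio of counts to TPM in a library is proportional to the effective length of a transcript. Set against the median of all stems with at least 20 CPM in the duct, the relative length had a median of 0.714 with quartiles of 0.346 and 1.07 over the 251 stems, and a median of 1.04 with quartiles of 0.608 and 1.59 over the others. Within Ppup names the median went the other way, with 0.39 in the set and 0.281 in the others. For PB names it was 0.948 and 1.02 without an x, and 0.77 and 1.19 with an x. For MSTRG names it was 0.575 and 0.675. Ppup085830 and Ppup153310 had relative lengths of 0.1 and 0.108, and PB.5197x and PB.6164x of 0.248 and 0.28.

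Duct-peaking stems tended to follow each other in the deposited table, in which the numbers within a kind of name rise in 94.1% to 99.6% of steps. Of the 251 stems, 86 (34.3%) had another duct-peaking stem directly before or after them, as 2.52% of the other stems with at least 20 CPM in the duct did. Within 1 kind of name, the nearest stem before or after was duct-peaking for 16.7% of the set and 2.86% of the others. The order of the table is not explained in the labels or the files, and neighbouring stems of different kinds may overlap in 1 locus and share reads. The 86 stems formed 37 runs, 30 of them of 2 stems. In 41 of the 49 adjacent pairs the kinds of name differed.

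The longest run had 7 stems, and it held PB.1058 and Ppup112190, both without a count outside the duct. Over the 7 stems the duct means lay between 27.6 and 251 CPM, the reservoir means between 0 and 6.77 CPM and the carcass means between 0 and 33.5 CPM. Duct library 1 was the lowest duct library in 6 of the 7 and duct library 3 in 1. Adjacent pairs also occurred among the abundant stems higher in the reservoir. PB.4597x, next to Ppup153310, had 837, 1284 and 1318 CPM in the duct, against 94.7, 126 and 478 CPM in the reservoir and 24.8, 17.5 and 17.0 CPM in the carcass. Ppup127940, next to PB.5199x, had 1394, 1453 and 1768 CPM in the duct, against 191, 182 and 435 CPM in the reservoir and 4.21, 0.787 and 3.43 CPM in the carcass. The neighbours in both pairs shared their order of tissues, but the rule and the choice of stems higher in the reservoir fix that order. Reservoir library 3 was the highest reservoir library in each of them, as in 10 of the 17 stems.

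The division of a stem's counts among its isoforms was not used by the rule. Isoform usage was tested for 80 of the 251 stems. Between duct and reservoir it differed in 4 of the 80 stems, 5%, beside 5.08% of all tested stems (limma diffSplice, Benjamini-Hochberg adjusted p under 0.05). One of the 4, PB.2763, had no reservoir count, so no usage could be seen there and its call is void. Of the 80, 43 had at least 10 counts in each duct and reservoir library, and usage differed in 3 of these, 6.98%, beside 5.63% of all such stems. Between duct and carcass usage differed in 10 of the 80, 12.5%, beside 16.4% of all tested stems, and in 9 of the 77 with at least 10 counts in each library, 11.7%, beside 17.3% of all such stems. With edgeR's diffSpliceDGE, usage differed in 6 of the 80 between duct and reservoir, 7.5% beside 5.23% of all tested stems, and in 3 between duct and carcass, 3.75% beside 12.4%. Between duct and reservoir 2 stems were called without duct library 3, reservoir library 1 or reservoir library 2, beside 2.53%, 2.65% and 2.09% of all tested stems, and 2 without carcass library 2, beside 6.4%. Between duct and carcass 6, 6 and 5 were called without duct libraries 1, 2 and 3, beside 11.7%, 11.5% and 11.8%. The leading model of the duct was also that of the reservoir in 37 of the 43 stems with such counts, and that of the carcass in 69 of the 77. Leading models were not compared over all tested stems, so nothing particular to the set is read from this.

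PB.6548x had the smallest adjusted p between duct and reservoir. Its 14 models summed to 1579, 2760 and 1890 CPM in the duct, against 123, 74.3 and 74.5 CPM in the reservoir and 619, 122 and 167 CPM in the carcass. The model PB.6548.18x took 59.1% ± 5.26 of the counts of its stem in duct libraries, 9.37% ± 5.88 in reservoir libraries and 57.6% ± 8.63 in carcass libraries (SD, n = 3 each). PB.6548.25x took 1.1% ± 0.27 in duct libraries, 36.9% ± 4.01 in reservoir libraries and 8.6% ± 4.57 in carcass libraries. In CPM, PB.6548.18x stood at 898, 1796 and 1044 in the duct, against 18.73, 6.996 and 2.587 in the reservoir and 407, 59.1 and 97.9 in the carcass. PB.6548.25x stood at 17.5, 22.7 and 25.8 CPM in the duct, against 43.6, 30.8 and 25.2 CPM in the reservoir and 20.7, 14.2 and 18 CPM in the carcass. PB.6548.18x was highest in all duct libraries, while PB.6548.25x was lower in 2 of the 3 duct libraries than in any reservoir library. Usage differed between duct and reservoir with a limma adjusted p of 4.26e-11, and the adjusted p lay between 1.35e-18 and 5.40e-06 in all other settings. Between duct and carcass the limma adjusted p was 0.00137, and the difference was lost with diffSpliceDGE (adjusted p = 0.831).

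**Figure D5:**
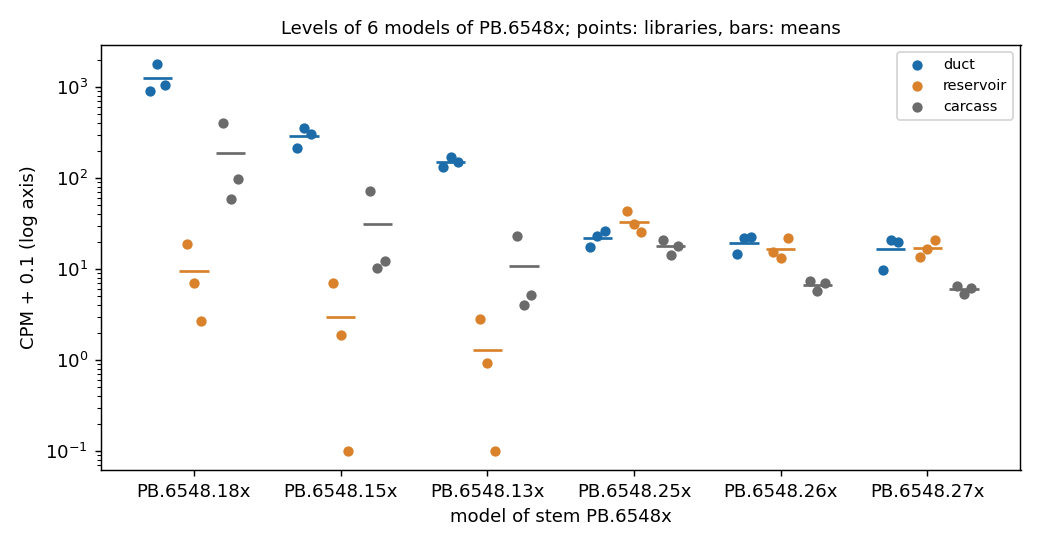
Levels of 6 models of PB.6548x in the duct, reservoir and carcass, as CPM + 0.1 on a log axis, with points for libraries and bars for means (n = 3 per tissue). PB.6548.18x, PB.6548.15x and PB.6548.13x are highest in all duct libraries, while duct and reservoir libraries of PB.6548.25x, PB.6548.26x and PB.6548.27x overlap.

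PB.5304x, with 3 models, was the other stem named for duct against reservoir. PB.5304.4x took 97.1% ± 0.937 of its counts in duct libraries, 67% ± 3.05 in reservoir libraries and 96.5% ± 2.14 in carcass libraries, and PB.5304.1x took 1.78% ± 0.0402, 18.6% ± 2.91 and 3.27% ± 2.01 in these tissues. The limma adjusted p was 1.19e-05, and it stayed under the threshold in all 14 settings run. The stem had 4395 to 4856 counts per duct library and 218 to 350 per reservoir library. Between duct and carcass the 2 smallest adjusted p were those of PB.6063 and PB.2763. PB.6063.7 took 99.6% ± 0.0438 of the counts of PB.6063 in the duct and 97.6% ± 0.281 in the carcass (limma adjusted p = 7.81e-05), a difference of small size that was lost with diffSpliceDGE (adjusted p = 0.145). PB.2763 rested on 64, 18 and 16 counts in carcass libraries 1 to 3. PB.2763.2 took 100%, 100% and 99.7% of the counts in the duct libraries, against 64.1%, 0% and 0% in the carcass libraries (limma adjusted p = 0.000501), and the call was lost with diffSpliceDGE (adjusted p = 0.121).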

How the data were processed

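The submitters' processing notes name Salmon 1.9 for the 9 libraries, and no source used here gives its reference transcripts or build. The authors deposited estimated counts per transcript model as whole numbers, and rounding changed none. The deposited TPM column of reservoir replicate 2 sums to 2 times that of the others and equals the sum of the duct replicate 3 and reservoir replicate 1 columns in 99.96% of models (within 2.5e-06), so as a score of unknown meaning, whatever the authors did to make it, it was left out. The other TPM columns were used as deposited by the authors.

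Counts were summed per ID stem, keeping a trailing x, and scaled by TMM over all stems for levels. Tests used R 4.3.3 with edgeR 4.0.16 (filterByExpr, TMM on the kept stems, quasi-likelihood F test, 1 coefficient per tissue, all 9 libraries), and limma 3.58.1 (voom, diffSplice F test) for isoform usage over models kept by filterByExpr. SEs were derived from the F statistic. DESeq2 1.42.0 was an alternative. Scripts were tested on simulated data. Intervals and floors cover counting error only. Isoforms can share reads, so levels of single models depend on how Salmon divides them.

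Replicate numbers were not taken to pair the libraries, since the labels name no shared source and not every same-numbered pair deviated together (correlation of -0.139 to 0.171 over tested stems). The set, the lists and the tests were chosen with earlier results of these data known. Named stems followed a rule: highest duct TPM (4), largest smaller fold over both tissues (2), largest rise and fall of reservoir over carcass among called, non-overlapping stems (2 each), smallest isoform p (2 per comparison) and largest and smallest duct spread (2 each). Stems named outside it were chosen after their values were seen. Planned lists of genes and cell type markers were not run, since the files pair no ID with a name.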

Additional observations from a re-analysis of the deposited data

How the results depend on the processing

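The number of duct-peaking stems was 386 with a fold of 2, 105 with a fold of 8, 164 with a minimum of 50 CPM and 117 by the TPM as deposited, where 20 is a level per length and no scaling was applied. The TPM setting lacked reservoir library 2, and only 93 of its 117 stems were among the 251. It was 220 to 280 when 1 library was left out, and 227, 247 and 240 with scaling by library size alone, by RLE and by upper quartile. Single models gave 287. Dropping the trailing x gave 194, but the 2 kinds of PB name follow separate numberings in the table. Left-out libraries gave 105 to 169 stems called between reservoir and carcass, 89 to 153 of them lower and 16 to 35 higher in the reservoir. Over all tested stems, 23.7% to 27.1% were then lower and 13.9% to 16% higher. Among other settings the count was 130 to 196, with 130 in a fit of the 6 reservoir and carcass libraries alone, whose shares are given above. The 196 came with scaling by library size alone, which shifted the log2 median over all stems by -0.794. There 181 were lower and 15 higher, beside 46.3% and 8.19% of all tested stems. With limma on log2 (TPM + 1), 157 were lower and 13 higher, beside 50.3% and 5.17%. DESeq2 gave an adjusted p for 223 of the 251 and called 143 lower and 19 higher, beside 27.3% and 16.5% of all such stems, and 144 of its calls were among the 166 of edgeR. Over the 251 stems, which were chosen on these libraries and are not replicates, deviations of same-numbered duct and carcass libraries correlated at 0.351, 0.487 and 0.0392. Other duct and carcass pairs gave -0.451 to 0.235. Same-numbered duct and reservoir libraries gave 0.0501, -0.0114 and 0.161, and reservoir and carcass libraries 0.216, -0.0377 and 0.254. Differently numbered pairs with the reservoir gave -0.315 to 0.095. Whether the numbers pair the libraries was not tested. With the replicate block, 144 were lower and 16 higher, beside 26.2% and 14.6% of all tested stems. Isoform usage then differed in 6 of the 80 stems between duct and reservoir, 7.5% beside 5.32% of all tested stems. Between duct and carcass it differed in 10 of the 80, 12.5% beside 16.7%. Left-out libraries gave 2 to 5 and 5 to 11 stems for isoform usage, beside 2.09% to 6.4% and 11.5% to 17.8% of all tested stems. For duct against carcass diffSpliceDGE gave 3, beside 12.4%. The mean share of the stems in the duct was 15.2% ± 1.44 by TPM and 9.79% without the stem with the most counts, and by TPM it was 1.35% in the reservoir (n = 2). Left-out libraries gave 10.4% to 11.3% of duct counts, 0.412% to 0.700% of reservoir counts and 0.815% to 1.99% of carcass counts. They gave median duct spreads of 0.222 to 0.2501. Of the set, 51.8% had a duct-peaking stem within 5 steps in the table. Of the other stems with at least 20 CPM in the duct, 11.2% did. The nearest stem of the same kind of name was duct-peaking for 16.7% of the set, beside 2.86% of the others. Both shares were chosen after seeing the data. So were the counts over stems with at least 10 counts in each library and over those past the filter without the duct. Ppup151880 has no fold of reservoir over carcass without carcass replicate 1.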
